A study of Mus musculus with 4 samples.

Results

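The cytosolic ribosomal protein genes were followed in cultured mouse myeloid-derived suppressor cells (MDSCs), measured one cell at a time as UMI counts, where a UMI is a tag that marks one captured mRNA molecule. They were taken as every gene whose symbol begins with Rpl or Rps, without the Rps6k kinases and the symbols that carry -ps for pseudogene, with at least 50 UMIs over the 4 libraries. This gave 85 genes of 32285 listed. Of these, 77 were core ribosomal proteins, 46 of the large and 31 of the small subunit. A further 7 were extra paralogues, Rpl3l, Rpl7l1, Rpl22l1, Rpl36al, Rpl39l, Rps27l and Rps27rt. The remaining one, Rps19bp1, encodes a protein that binds RPS19 and is not itself a ribosomal protein. Rpl10l matched the symbols and had 0 UMIs, and 5 symbols carried -ps. Together the 85 genes held 15970209 of 101707790 UMIs, or 15.7%.

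MDSCs had been grown from the bone marrow of C57BL/6 mice, 6 to 10 weeks old, for 4 days in IL-6 and GM-CSF at 40 ng/mL each, and live CD11b+ cells were sorted. The study's animal list gives female mice, while its methods name both sexes. The 4 libraries came from WT cells, WT cells plus 10 µM isoproterenol (ISO), an agonist of all β-adrenergic receptors, β2AR-/- cells, which lack the β2-adrenergic receptor, and β2AR-/- cells plus ISO. Each group had 1 library, and cells of 1 culture are not replicates, so no difference between libraries was tested. Intervals given below are exact conditional binomial 95% intervals and cover counting error only.

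After filtering, 9303 of 9525 barcodes were kept, between 2039 and 2790 cells per library with 19357824 to 29400468 UMIs, and no barcode was shared between libraries. By the paper's methods tagged cell suspensions were pooled before loading, so the libraries may be parts of a pooled capture. Such parts, split by tag, would also share no barcode. Mpo and Elane, granule genes of neutrophil progenitors, were at 5.07 ± 0.98 and 23.6 ± 2.9 CPM (counts per 1e+06 UMIs; SD, n = 4 libraries) in the mature neutrophil-like cluster, against 1269 ± 346 and 4955 ± 660 CPM in the progenitor-like cluster. How much of the UMIs of a cluster was free RNA from other cells was not tested.

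Each ribosome holds one copy of nearly every ribosomal protein, so cells that grow and divide keep the mRNAs of these proteins abundant and in rough balance. Most of these mRNAs start with a C followed by a run of pyrimidines, the 5′ terminal oligopyrimidine (TOP) motif, through which LARP1 and the mTOR pathway set their translation and stability. Neutrophils divide as progenitors while they fill azurophil granules, stop dividing as they fill specific granules, and reach maturity as small cells with condensed nuclei and little RNA.

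Annotated start sites of some genes with large, middle or small changes along maturation are shown because the TOP motif lies there. These genes were chosen after values were seen, so they do not show how common the motif is. Its frequency over all members' sites is given further below. The windows hold 10 bases before the annotated start and 20 from it, 5′ to 3′ on the gene's strand, from the RefSeq promoters of GRCm38.p6. Capitals mark a C at the start with the pyrimidines that follow it, where there were at least 4 of them.
Rps6, chr4:86857348-86857377, minus strand: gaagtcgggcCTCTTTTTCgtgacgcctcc
Rpl14, chr9:120571507-120571536, plus strand: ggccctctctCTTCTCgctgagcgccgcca
Rps18, chr17:33955646-33955675, minus strand: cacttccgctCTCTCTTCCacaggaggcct
Rps2, chr17:24720053-24720082, plus strand: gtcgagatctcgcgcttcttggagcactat
Rpl4, chr9:64173377-64173406, plus strand: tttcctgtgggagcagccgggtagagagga
Rpl38, chr11:114668570-114668599, plus strand: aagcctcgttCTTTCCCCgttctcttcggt
Rpl35, chr2:39005112-39005141, minus strand: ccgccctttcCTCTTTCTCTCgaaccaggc
Rps27, chr3:90213629-90213658, minus strand: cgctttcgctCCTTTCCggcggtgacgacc
Rps27rt, chr9:114982720-114982749, minus strand: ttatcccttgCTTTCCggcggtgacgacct
Rps27l, chr9:66946076-66946105, plus strand: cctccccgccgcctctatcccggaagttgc
Rpl22, chr4:152324426-152324455, plus strand: cttctggaatgttccagctcccactgacag
Rpl22l1, chr3:28805498-28805527, plus strand: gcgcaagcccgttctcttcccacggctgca

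The run stood at the start of Rps6, Rpl14 and Rps18, whose log2 ratios of progenitor-like over mature cells were 2.17, 2.26 and 2.06. Rps2 and Rpl4, with ratios of 2.29 and 2.19, had no such run at the start, nor had Rpl10a at 2.45. The run also stood at the start of Rpl35, Rpl38 and Rps27, with ratios of 1.57, 1.04 and 0.14. Rpl22 and the paralogues Rps27l and Rpl22l1 had none there. The windows of Rps27 and Rps27rt shared 19 bases in a row, while those of Rps27 and Rps27l shared at most 4 and those of Rpl22 and Rpl22l1 at most 6. Rps27rt is a near-identical copy of Rps27, so reads may have been split between them and both counts are uncertain. Other members have processed pseudogenes in the mouse genome, which can take reads in the same way.

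Promoter entries existed for 65 of the 85 genes, with 77 start sites. On the gene's strand, C followed by at least 4 bases of C or T stood exactly at the start in 14 of the 77, or 18.2%, against 823 of all 32851 promoters, or 2.51%. Within 10 bases of the start on either side it was found in 53.2% of the members' sites and in 30.7% of all promoters. Of the 18 sites of translation genes, 5 held the run at the start, while 0 of 38 sites of ribosome assembly genes and 0 of 75 of mitochondrial ribosome genes did. A start site annotated a few bases off would hide the run, so a missing match says only that these letters are not at this position.

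Cells were grouped by clustering on genes other than the ribosomal and translation genes, so that those genes did not place the cells, and clusters were named from marker genes. The share of UMIs that came from ribosomal protein genes was higher in the progenitor-like cluster than in every other cluster in all 4 libraries. Led by Mpo, Ctsg and Elane, its 925 cells gave 22.2% in WT, 22.3% in WT plus ISO, 22.9% in β2AR-/- and 22.5% in β2AR-/- plus ISO. The 4 libraries differed by less than 1 percentage point there.

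Shares fell in the specific-granule neutrophil-like clusters. The cluster led by Camp and Ngp, antimicrobial granule genes, held 1196 cells with 14.7%, 14.3%, 15.2% and 15.2% in the same order of libraries. The cluster led by Scrg1 and Ltf, the lactoferrin gene, held 1772 cells with 6.42%, 6.08%, 7.10% and 7.05%. Between the Camp and Ltf clusters, the Ltf cluster thus had the smaller share in each library.

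The mature neutrophil-like cluster, with Retnlg and Mmp9 among its leading genes, held 2711 cells with 8.44%, 7.25%, 9.31% and 7.87%. In all 4 libraries this lay above the Ltf cluster and below the Camp cluster. An unnamed cluster of 269 cells led by the stefin genes Stfa3 and Stfa2 had 10.7%, 11%, 11.3% and 11.3%.

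**Figure D1:**
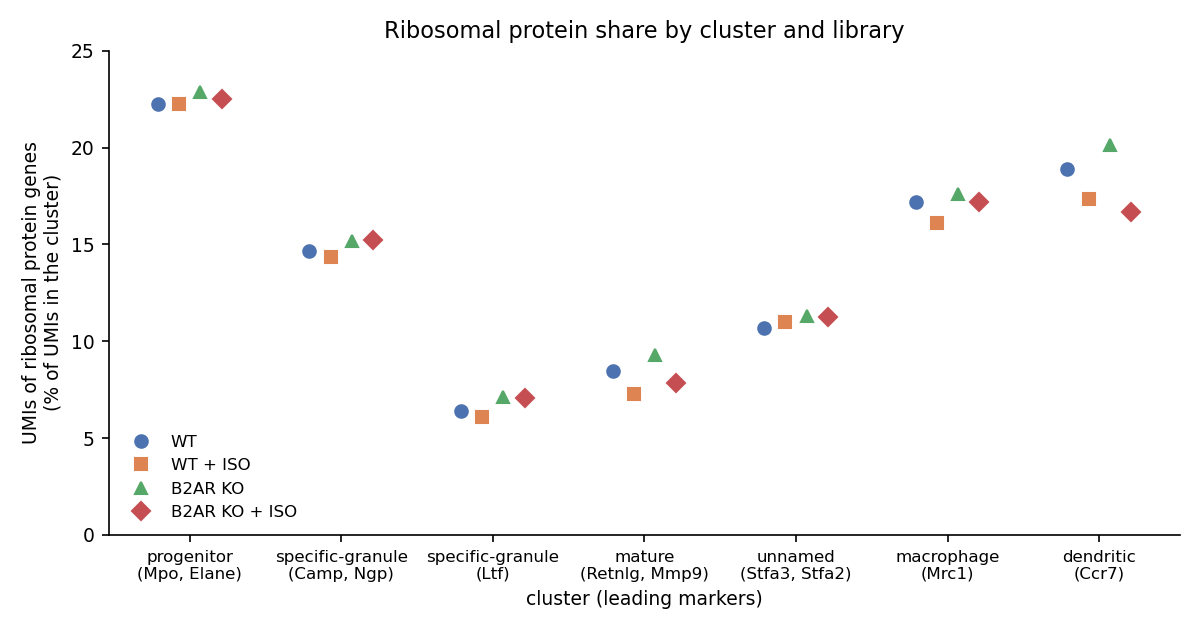
Share of UMIs from the 85 ribosomal protein genes (percent, vertical axis, from 0) in each cluster, with 1 point per library (B2AR KO stands for β2AR-/-). The progenitor-like cluster sits at 22.2% to 22.9% and the Ltf cluster at 6.08% to 7.10%, with the mature cluster between it and the Camp cluster.

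The mature cluster was mixed. With finer clusters (Leiden resolution 1.0 in place of 0.4), 853 of its cells joined a cluster led by Retnlg with Mmp9 and Cxcr2 and 1379 joined an unnamed one led by Acta2, Csf1 and, further down, Il1b. The Cxcr2 cluster had 3.58% in WT, 3.76% in WT plus ISO, 4.15% in β2AR-/- and 4.29% in β2AR-/- plus ISO. The Il1b cluster had 10.8%, 10.4%, 12.97% and 11.3%, with a median of 2771.5 UMIs per cell against 4388 in the Cxcr2 cluster.

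At this resolution the shares of the clusters listed next stood in 1 order in all 4 libraries. The progenitor-like cells had 20.9%, 21.6%, 22.1% and 21.6%. The Camp cluster had 12.9%, 13.3%, 14.1% and 14.3%, a cluster led by Cpa6 with Ltf had 8.42%, 8.38%, 9.87% and 9.77%, and the one led by Scrg1 had 4.19%, 4.09%, 4.84% and 4.55%. The Cxcr2 cluster was below each of these. A specific-granule neutrophil-like cluster led by Stfa3 had 10.7%, 10.3%, 10.9% and 11.4%. Both it and the Il1b cluster lay between the Camp and Cpa6 clusters in each library. The Stfa3 cluster was below the Il1b cluster except in β2AR-/- plus ISO.

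Single cells spread widely around these values. In the progenitor-like cluster the median cell had 22.5% in WT, with 5% of cells below 17.1% and 5% above 25.9%. In the mature cluster of WT the median was 7.28%, with 5% of cells below 2% and 5% above 15.8%. Cells with more UMIs had larger shares in the Camp cluster, with a Spearman correlation over cells of 0.52 in WT, 0.54 in WT plus ISO, 0.49 in β2AR-/- and 0.42 in β2AR-/- plus ISO. Over the mature cells the same correlation lay between -0.11 and 0.13, though these cells were mixed. In the finer Il1b cluster it was 0.42, 0.29, 0.50 and 0.38 in the same order of libraries. In the finer Cxcr2 cluster it was 0.05, 0.04, 0.09 and 0.16. Points of 1 correlation share a library, and share and depth are taken from the same counts.

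Within a library, the share was higher in progenitor-like than in mature cells by 1.40 on the log2 scale in WT, 1.62 in WT plus ISO, 1.30 in β2AR-/- and 1.52 in β2AR-/- plus ISO. The mean was 1.46 ± 0.14 (SD, n = 4 libraries). With finer clusters, where the Il1b cells were no longer counted as mature, it was 2.45, and other cell filters and totals gave values down to 1.21. The direction was the same in all 4 libraries and the SD small beside the mean, while the choice of mature cells moved the value far more than the libraries did. Fewer transcripts per cell of other genes and more of these cannot be told apart in a share alone. The median cell had 23366 UMIs in the progenitor-like and 3701 in the mature cluster. Amounts per cell were not tested.

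Of the 85 genes, 81 were past the fold higher in progenitor-like cells, with the same direction in all 4 libraries, and 1 was lower, beside 36.4% of all 12988 genes with at least 50 UMIs that were higher and 31.7% that were lower. Past the fold means a mean log2 ratio beyond 0.32 in either direction. The median log2 ratio was 1.41 for the 85 genes and 0.052 for all genes. All 46 large subunit genes were past the fold, with a median of 1.46, and 30 of 31 small subunit genes, with a median of 1.37. The exception was Rps27. Gene-level ratios were taken on CPM with 1 added, which understates changes of weakly detected genes.

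Rpl3, a large subunit protein near the peptidyl transferase centre, was at 2605 CPM in progenitor-like cells of WT, 2511 in WT plus ISO, 2853 in β2AR-/- and 2800 in β2AR-/- plus ISO. In mature cells it was at 432, 360, 514 and 391 CPM. The groups were far apart, with a log2 ratio of 2.67 ± 0.17 (SD, n = 4). Its share of all ribosomal protein UMIs went from 1.20% ± 0.058 to 0.514% ± 0.026, so it fell more than the group it belongs to.

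Rpl10a, another large subunit protein, had 2284, 2279, 2611 and 2583 CPM in progenitor-like cells and 418, 385, 537 and 455 in mature cells. The log2 ratio was 2.45 ± 0.12. Rps2, a small subunit protein at the entry of the mRNA channel, had 6209, 5895, 5998 and 5859 CPM against 1328, 1095, 1446 and 1082, a log2 ratio of 2.29 ± 0.18. In each gene, every progenitor value was above every mature value.

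Rpl14 and Rpl4, both of the large subunit, followed with 2.26 ± 0.17 and 2.19 ± 0.14. Rps6, the small subunit protein phosphorylated by the S6 kinases, had 2101, 2123, 2094 and 2013 CPM in progenitor-like and 471, 405, 560 and 422 CPM in mature cells. It was thus steadier between libraries in the progenitor-like than in the mature cells, with SDs of 48.5 and 69.4 CPM around means of 2083 and 464.5.

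At the other end stood Rps27, a small zinc-finger protein of the small subunit, with 765 CPM in progenitor-like cells of WT, 771 in WT plus ISO, 814 in β2AR-/- and 820 in β2AR-/- plus ISO. Mature cells had 743, 628, 777 and 735 CPM. The ranges overlapped, and the log2 ratio was 0.14 ± 0.12. Without the 20 most abundant other genes in the total it was -0.10. As a share of all ribosomal protein UMIs, Rps27 went from 0.353% ± 0.0093 to 0.878% ± 0.042.

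Rps27 did not keep one level throughout. It was at 481 ± 54.8 CPM in the Ltf cluster, below both ends. With finer clusters it was at 463 ± 47.6 CPM in the Cxcr2 cluster against 742 ± 16.2 in progenitor-like cells, while Rpl3 went from 2534 ± 129 to 110 ± 7.5 CPM. In the Il1b cluster Rps27 was at 953 ± 85.7 CPM. Against the Cxcr2 cells, then, Rps27 was also lower at maturity, by less than other core genes. There 82 of the 85 genes were higher in progenitor-like cells and 1 was lower, with a median log2 ratio of 2.46, beside 43.6% and 24.3% of all genes.

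Rpl37, a small zinc-binding protein of the large subunit, had 1761, 1808, 1802 and 1804 CPM in progenitor-like cells and 1019, 867, 1074 and 974.6 in mature cells, a log2 ratio of 0.87 ± 0.14. Rps29, a small zinc-binding protein of the small subunit, had 2548, 2505, 2530 and 2442 CPM against 1438, 1183, 1422 and 1226. Both were lower in mature cells of every library, though by less than the median member, and their part of all ribosomal protein UMIs was larger there. That part was 0.798% ± 0.011 in progenitor-like and 1.20% ± 0.035 in mature cells for Rpl37.

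**Figure D2:**
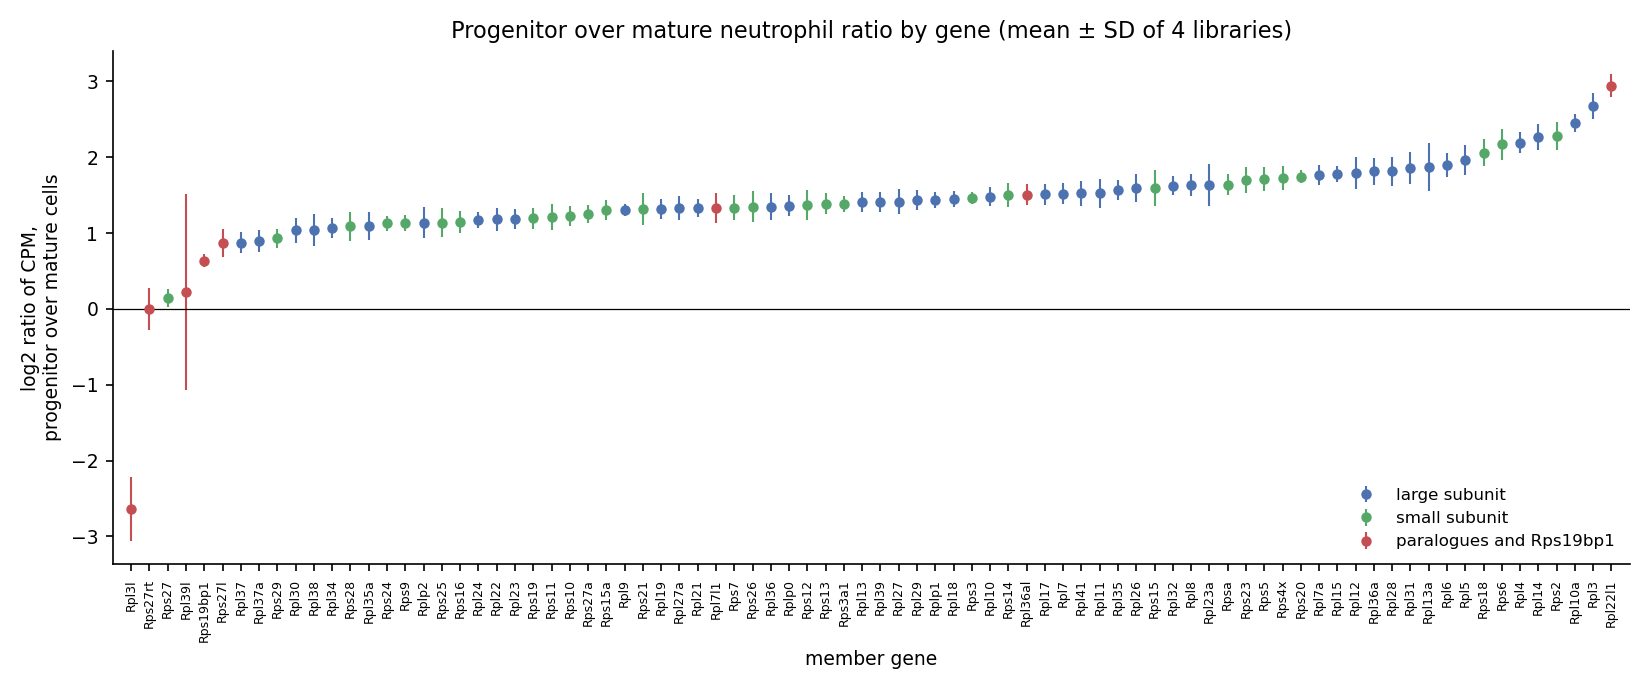
Log2 ratio of CPM plus 1 in progenitor-like over mature neutrophil-like cells for 82 of the 85 ribosomal protein genes, ordered by value, with the mean and SD over 4 libraries. The core genes shown lie between 0.14 and 2.67, and Rpl3l lies at -2.64 below all others.

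The genes with the smaller ratios were mostly short, a relation looked for after the values were seen. Each gene has a single annotated length, and whether it is that of the transcripts counted was not checked. Annotated coding lengths of the 77 core genes ran from 138 bases (Rpl41) to 1257 bases (Rpl4). The log2 ratio of progenitor-like to mature cells rose with this length, with a Spearman correlation of 0.51. It was 0.57 in WT, 0.44 in WT plus ISO, 0.51 in β2AR-/- and 0.47 in β2AR-/- plus ISO. The 39 genes at or above the median of 468 bases had a median log2 ratio of 1.52 and the 38 shorter genes one of 1.35.

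The relation went the same way between other clusters, at 0.59 for specific-granule over mature cells, 0.49 for progenitor-like over macrophage-like cells and 0.39 with the finer clusters. Over all 11647 genes with a coding length it was -0.15. With the annotated length of the whole transcript in place of the coding part it was 0.096, and with the genes' UMI totals -0.098. The annotated transcript can be far longer than its coding part, as for Rpl37 with 6111 and 291 bases. These correlations are across genes, which share their libraries and are not independent, and they come with no test. A UMI counts a captured transcript once, and whether capture depended on length was not tested.

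**Figure D3:**
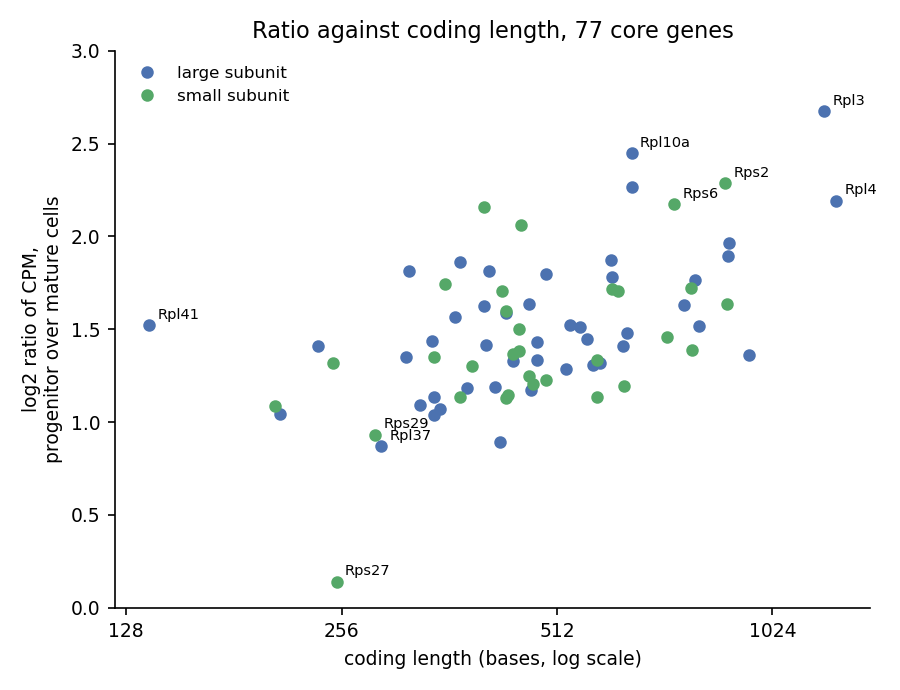
Log2 ratio of progenitor-like over mature neutrophil-like cells (vertical axis) against coding length in bases (horizontal log axis) for the 77 core ribosomal protein genes, with 1 point per gene. Points rise from left to right with wide scatter, and Rps27 lies below all other core genes.

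The paralogues did not follow their parent genes alike. Rpl22l1, a close relative of the RNA-binding protein Rpl22, had 829, 842, 900 and 939.5 CPM in progenitor-like cells and 102, 120, 125 and 107 in mature cells, a log2 ratio of 2.94 ± 0.15, above all core genes. Against the finer Cxcr2 cluster it was at 3.24 ± 0.13, below Rpl3 at 4.51 ± 0.10, Rps2 at 3.93 ± 0.14 and other core genes. Rpl22 itself had 1464, 1428, 1480 and 1430 CPM against 652, 546, 730 and 636, a ratio of 1.18 ± 0.15. In the Ltf cluster Rpl22 was at 338 ± 31.5 CPM, below its level in mature cells, and Rpl22l1 at 205 ± 21.5 CPM, above its own.

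Rpl3l, a relative of Rpl3 known from heart and skeletal muscle, was the one member lower in progenitor-like cells. It had 10, 6, 12 and 4 UMIs there, or 1.85, 0.679, 2.52 and 1.41 CPM, and 55, 38, 48 and 33 UMIs in mature cells, or 17.9, 13.6, 14.02 and 13.7 CPM. The log2 ratio was -2.64 ± 0.42, opposite to that of Rpl3 in all 4 libraries. Over all cells it had 735 UMIs. With finer clusters Rpl3l was found in several clusters. It was at 14.2 ± 5.7 CPM in the Cpa6 cluster, 15.6 ± 4.1 in the Scrg1 cluster, 13.99 ± 5.4 in the Cxcr2 cluster and 14.9 ± 1.6 in the Il1b cluster. It was at 22.5 ± 7.5 CPM in the dendritic-like cluster and 19.6 ± 4.0 in an unnamed one led by Gpnmb. A further unnamed cluster of 363 cells, led by Klk1b11 and Igfbp6, had Rpl3l itself among its 10 leading genes, at 19.6 ± 8.5 CPM, and took 196 cells of the mature cluster. Each of these values rests on few UMIs, and reads of a neighbouring or overlapping transcript were not looked for.

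Rps27l, a relative of Rps27 and a known p53 target, had 767, 830, 671 and 669 CPM in progenitor-like cells and 456.5, 398, 417 and 339 in mature cells, with 125 ± 22 CPM in the Ltf cluster. Its log2 ratio was 0.87 ± 0.18 against 0.14 ± 0.12 for Rps27. Rps27rt was at 23.2 ± 3.2 CPM in progenitor-like and 23.4 ± 4.6 in mature cells. It was thus similar at these ends, like Rps27, with which it may share reads. In specific-granule cells both were lower than in mature cells, with log2 ratios of -0.47 ± 0.13 and -0.36 ± 0.067. Those signs turned with a stricter cell filter, as given below.

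Rpl36al and Rpl7l1 stayed nearer to their parents, with log2 ratios of 1.51 ± 0.13 and 1.34 ± 0.20 beside 1.81 ± 0.18 for Rpl36a and 1.52 ± 0.14 for Rpl7. Rpl7l1 is known from the assembly of the large subunit. Rpl39l had 93 UMIs in all and a ratio of 0.22 ± 1.29, so no direction could be given. Rps19bp1 had a ratio of 0.64 ± 0.086.

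**Figure D4:**
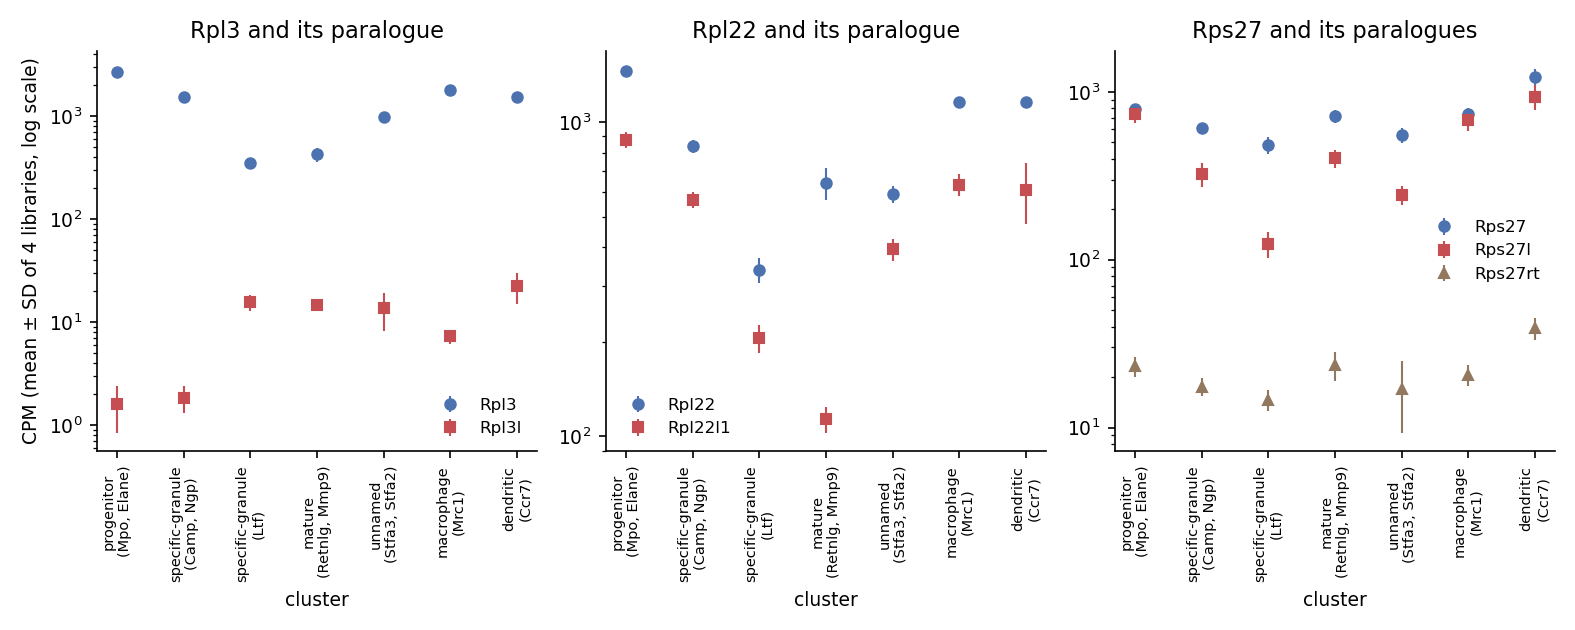
CPM (log axis) of the paralogues and their parent genes for Rpl3, Rpl22 and Rps27 in the 7 clusters, with the mean and SD over 4 libraries. Rpl22l1 falls more than Rpl22 toward mature cells, and Rpl3l is higher there while Rpl3 is lower.

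Specific-granule cells, with both clusters pooled, had more ribosomal protein UMIs than mature cells by 0.51, 0.68, 0.34 and 0.57 on the log2 scale in the 4 libraries, with a mean of 0.52 ± 0.14 and values of 0.27 to 1.43 under other settings. Of the 85 genes 60 were past the fold higher and 5 lower, beside 18.2% and 36.2% of all genes. The 5 that were lower were Rpl3l, Rps19bp1, Rps27l, Rps27rt and Rps27, with log2 ratios from -0.99 to -0.36. With a stricter cell filter, under which the clusters were drawn anew, Rps19bp1, Rps27l, Rps27rt and Rps27 were above 0, at 0.15 to 1.07. Rpl22l1 at 1.91 ± 0.17, Rpl3 at 1.36 ± 0.22, Rpl10a at 1.36 ± 0.17 and Rps6 at 1.06 ± 0.23 were again at the upper end. The median was 0.50, against -0.21 for all genes.

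The macrophage-like cluster, led by Mrc1 with C1qb and Mmp12, held 2327 cells with shares of 17.2% in WT, 16.1% in WT plus ISO, 17.6% in β2AR-/- and 17.2% in β2AR-/- plus ISO. It lay above all neutrophil-like clusters other than the progenitor-like one. Progenitor-like cells exceeded it by 0.37, 0.47, 0.38 and 0.39 on the log2 scale, with a mean of 0.40 ± 0.044, which was 0.12 with no filter on cells. This cluster was mixed too, and 3 of its 7 macrophage markers were detected in 10% of its cells. With finer clusters 817 of its cells joined a macrophage-like cluster led by C1qb, 959 a monocyte-like one and 498 an unnamed one led by Matn2, which also took 401 progenitor-like cells. The monocyte-like cluster had 16.2%, 14.6%, 17.4% and 16.6%, and the Matn2 cluster 20.9%, 20.7%, 20.4% and 20.5%. The dendritic-like cluster of 103 cells had 18.9%, 17.3%, 20.1% and 16.7%.

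Between progenitor-like and macrophage-like cells, 59 of the 85 genes were past the fold higher in progenitors and 1 lower, beside 26% and 34.8% of all genes, with medians of 0.41 and -0.067. Rps6 at 0.70 ± 0.051 and Rpl5, a large subunit protein that carries 5S rRNA, at 0.69 ± 0.039 were near the upper end. Rps27 at 0.10 ± 0.093 and Rps27l at 0.11 ± 0.046 were near 0, and Rpl3l was at -1.70 ± 0.42, with 7.27 ± 1.1 CPM in macrophage-like cells.

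Genes that work beside the ribosomal proteins moved in part with them. Of 23 ribosomal proteins under other names and translation genes, 20 were past the fold higher in progenitor-like than in mature cells and 0 were lower, with a median of 1.40. Among all genes 36.4% were higher and 31.7% lower, with a median of 0.052. Rack1, a scaffold on the small subunit, was at 1.81 ± 0.18, the elongation factor Eef2 at 1.61 ± 0.10 and Eef1a1 at 1.33 ± 0.14. The host genes of small nucleolar RNAs Gas5 and Snhg6 were at 2.71 ± 0.20 and 2.66 ± 0.29. Fau, which encodes the small subunit protein eS30 fused to a ubiquitin-like protein, was at 0.26 ± 0.14, and the TOP mRNA Tpt1 at 0.14 ± 0.083, so both lay near Rps27.

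Of 37 ribosome assembly genes, 36 were higher and 0 lower, with a median of 1.58, beside the same 36.4% and 31.7% of all genes. Npm1 and Ncl, abundant nucleolar proteins, were at 3.06 ± 0.31 and 2.61 ± 0.35, Nop56 at 2.87 ± 0.39, and Fbl, which methylates rRNA, at 1.58 ± 0.18. Of 79 mitochondrial ribosome genes 76 were higher and 1, Mrpl52, was lower, with a median of 1.26. Between specific-granule and mature cells 2 assembly genes were higher and 16, or 43.2%, lower, with a median of -0.33, beside 18.2% and 36.2% of all genes and a median of -0.21, so the lower share was near that of all genes. There 60 of the 85 ribosomal protein genes were higher. Of 17 regulators detected, 5 were higher and 3 lower in progenitor-like than in mature cells, or 29.4% and 17.6%, neither above the share of all genes. Myc was at 1.70 ± 0.30 and Larp1 at 1.23 ± 0.25, while Eif4ebp1, which holds back cap-dependent translation, was at -0.62 ± 0.25 and Mtor at 0.25 ± 0.15.

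The effect of ISO was read in WT and in β2AR-/- cells, since ISO acts on β-adrenergic receptors. In WT the share of all UMIs from ribosomal protein genes was 15.9% without and 15.5% with ISO, a log2 ratio of -0.032 (-0.034 to -0.030). In β2AR-/- it was 16.1% without and 15.2% with ISO, a log2 ratio of -0.088 (-0.090 to -0.086). Both differences lay outside counting error and under 1 percentage point. With 1 library per group they cannot be set against the spread between cultures.

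The cells in the libraries differed as well. Progenitor-like cells were 10.2% of WT, 15.1% of WT plus ISO, 8.21% of β2AR-/- and 6.38% of β2AR-/- plus ISO cells. Mature cells were 34.2%, 24.6%, 28.2% and 30.01%, and macrophage-like cells 23.1%, 15.9%, 31.9% and 27.7%. With each cell class at a fixed weight, its share over all cells, ISO went with -0.086 in WT and -0.067 in β2AR-/-. In WT the sign turned, to 0.0090, without the 20 most abundant other genes in the total. The share was also lower with ISO in 5 of 7 clusters of WT and in 6 of 7 of β2AR-/-. With finer clusters it was lower in 9 of 13 in each genotype.

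With ISO in WT, 0 of the 85 genes were past the fold higher and 3 lower, beside 8.23% and 17.4% of all genes. The median was -0.029 for the members and -0.024 for all genes, and 62 of the 85 were below 0, beside 7039 of 12988 genes. The 3 were Rpl39l with 32 and 20 UMIs, Rpl3l at 7.87 and 5.68 CPM with a log2 ratio of -0.47 (-0.78 to -0.16), and Rps27rt at 21.8 and 17.1 CPM with -0.35 (-0.53 to -0.17). No core gene was past the fold.

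Among the core genes Rps27 was lowest, with 703 CPM in WT and 643 in WT plus ISO, a log2 ratio of -0.13 (-0.16 to -0.098). Rpl35 and Rpl37a, both of the large subunit, were at -0.10 each. Rpl7l1 was the highest member, with 86.1 and 101.7 CPM and a ratio of 0.24 (0.16 to 0.32). Rps15 was at 0.071 and Rpl31 at 0.063, and both were below 0 with classes at fixed weights. The core genes ran from -0.13 to 0.071. The paralogues outside this range, Rpl39l, Rpl3l, Rps27rt and Rpl7l1, had 93, 735, 2093 and 8457 UMIs in all. Rpl22l1 at 0.024 and Rps27l at 0.018, with 57686 and 55223 UMIs, lay inside it.

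With ISO in β2AR-/-, 0 of the 85 genes were past the fold in either direction, beside 7.04% of all genes higher and 8.84% lower. All 85 were below 0, from -0.15 to -0.005, beside 7697 of 12988 genes. The median was -0.092 against -0.037 for all genes. Rpl22l1 was highest, at 569 and 567 CPM. A single total divides all genes of a library, so values of 85 abundant genes below 0 are not 85 separate observations.

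In the mature cluster ISO went with -0.22 (-0.23 to -0.21) in WT and -0.24 (-0.25 to -0.23) in β2AR-/-. The Il1b cells in it were 19.96% of WT, 10.2% of WT plus ISO, 14.5% of β2AR-/- and 15.01% of β2AR-/- plus ISO cells. Within the finer Cxcr2 cluster the values were 0.072 and 0.049, and within the Il1b cluster -0.052 and -0.19. The sign in mature cells therefore depended on which cells were pooled. In the progenitor-like cluster the values were 0.001 (-0.003 to 0.004) in WT and -0.021 (-0.025 to -0.017) in β2AR-/-.

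In the macrophage-like cluster the share was lower with ISO by -0.094 (-0.097 to -0.090) in WT and -0.034 (-0.037 to -0.031) in β2AR-/-. With finer clusters, the cells led by C1qb and other complement genes had 16.2% in WT and 12.2% in WT plus ISO, from 168 and 64 cells, and 17.2% and 17.0% in β2AR-/- without and with ISO, from 381 and 204 cells. The WT plus ISO value stood apart from the other 3, and it rests on the fewest cells.

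Genotype was compared without and with ISO, in comparisons that share their libraries with those of ISO. Without ISO the share was 15.9% in WT and 16.1% in β2AR-/-, a log2 ratio of 0.025 (0.023 to 0.027), or 0.072 with classes at fixed weights. With ISO it was 15.5% and 15.2%, a log2 ratio of -0.031 (-0.033 to -0.029), but 0.091 with classes at fixed weights. Within clusters the share was higher in β2AR-/- in 7 of 7 without ISO, by 0.034 to 0.14. With ISO it was higher in 6 of 7, from -0.058 to 0.21. With finer clusters it was higher in 12 of 13 without and 11 of 13 with ISO. The Matn2 cluster was lower in β2AR-/- in both, at -0.031 and -0.014. WT and β2AR-/- cells came from separate mouse lines, and line, culture and deletion cannot be told apart here.

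Without ISO, 0 of the 85 genes were past the fold higher in β2AR-/- and 1 lower, Rpl39l, beside 12.3% and 11.1% of all genes. Rpl10a was highest, at 1576 CPM in WT and 1724 in β2AR-/-, with a log2 ratio of 0.13 (0.11 to 0.15), and Rps9 was at 0.10. Rpl7l1 was at -0.27 (-0.36 to -0.18) and Rps27l at -0.19 (-0.22 to -0.15). Rps2 was at -0.11.

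With ISO, 2 of the 85 were past the fold higher, Rpl3l at 0.45 and Rps27rt at 0.33, and 4 lower, beside 24.7% and 20.4% of all genes. Among the 4 were Rpl7l1 with 101.7 CPM in WT plus ISO and 67.5 in β2AR-/- plus ISO, Rps19bp1 with 40.6 and 30.5 and Rps27l with 590 and 465. Rpl3l was at -0.020 with classes at fixed weights. Their log2 ratios were -0.59 (-0.69 to -0.50), -0.41 (-0.56 to -0.27) and -0.34 (-0.38 to -0.31) in that order. Rps27 was at 0.18 (0.15 to 0.22), the highest core value.

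Within clusters Rps27l did not follow one pattern. Its CPM in the progenitor-like cluster was 767 in WT, 830 in WT plus ISO, 671 in β2AR-/- and 669 in β2AR-/- plus ISO, and in the Camp cluster 374, 367, 278 and 278. In the macrophage-like cluster it was at 710, 803, 619 and 598. In these clusters and the Ltf cluster, 4 of 7, both β2AR-/- libraries were below both WT libraries. In the mature cluster β2AR-/- lay above WT plus ISO, at 417 against 398 CPM. In the dendritic-like cluster of 103 cells Rps27l was higher in β2AR-/-, at 807, 825, 967 and 1149 CPM in the same order of libraries.

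The ribosome assembly genes differed between genotypes by more than the ribosomal proteins. Without ISO, 0 of 37 were past the fold higher in β2AR-/- and 27 lower, with a median of -0.43, and with ISO 0 and 35, with a median of -0.83, beside 11.1% and 20.4% of all genes lower. Nolc1, a nucleolar phosphoprotein, had 66.2 CPM in WT, 78.9 in WT plus ISO, 36.8 in β2AR-/- and 33.8 in β2AR-/- plus ISO, and Ncl had 402, 463, 270 and 250. Both β2AR-/- libraries were below both WT libraries in each.

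In the progenitor-like cluster, a view added after these values were seen, the summed assembly genes were at 5895 CPM in WT, 6060 in WT plus ISO, 4630 in β2AR-/- and 4403 in β2AR-/- plus ISO. The log2 ratios of β2AR-/- over WT were -0.35 (-0.37 to -0.32) without and -0.46 (-0.49 to -0.43) with ISO, while those of the ribosomal proteins there were 0.039 (0.035 to 0.043) and 0.017 (0.013 to 0.021). In the macrophage-like cluster the assembly genes were at -0.34 and -0.59. They were below 0 in 7 of 7 clusters in both comparisons, by -0.037 to -0.38 without and -0.14 to -0.59 with ISO. The intervals reached 0 in the Ltf, mature and Stfa3 clusters without ISO and in the Stfa3 cluster with ISO. Of the 79 mitochondrial ribosome genes 12, or 15.2%, were past the fold lower without ISO, beside 11.1% of all genes, and 46, or 58.2%, with ISO, beside 20.4%. Without ISO 73 of the 79 were below 0, beside 6616 of 12988 genes, with medians of -0.20 and -0.005. Summed, they were below 0 in 7 of 7 clusters in both comparisons, by -0.072 to -0.18 without and -0.038 to -0.42 with ISO. The interval reached 0 in the mature cluster with ISO.

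**Figure D5:**
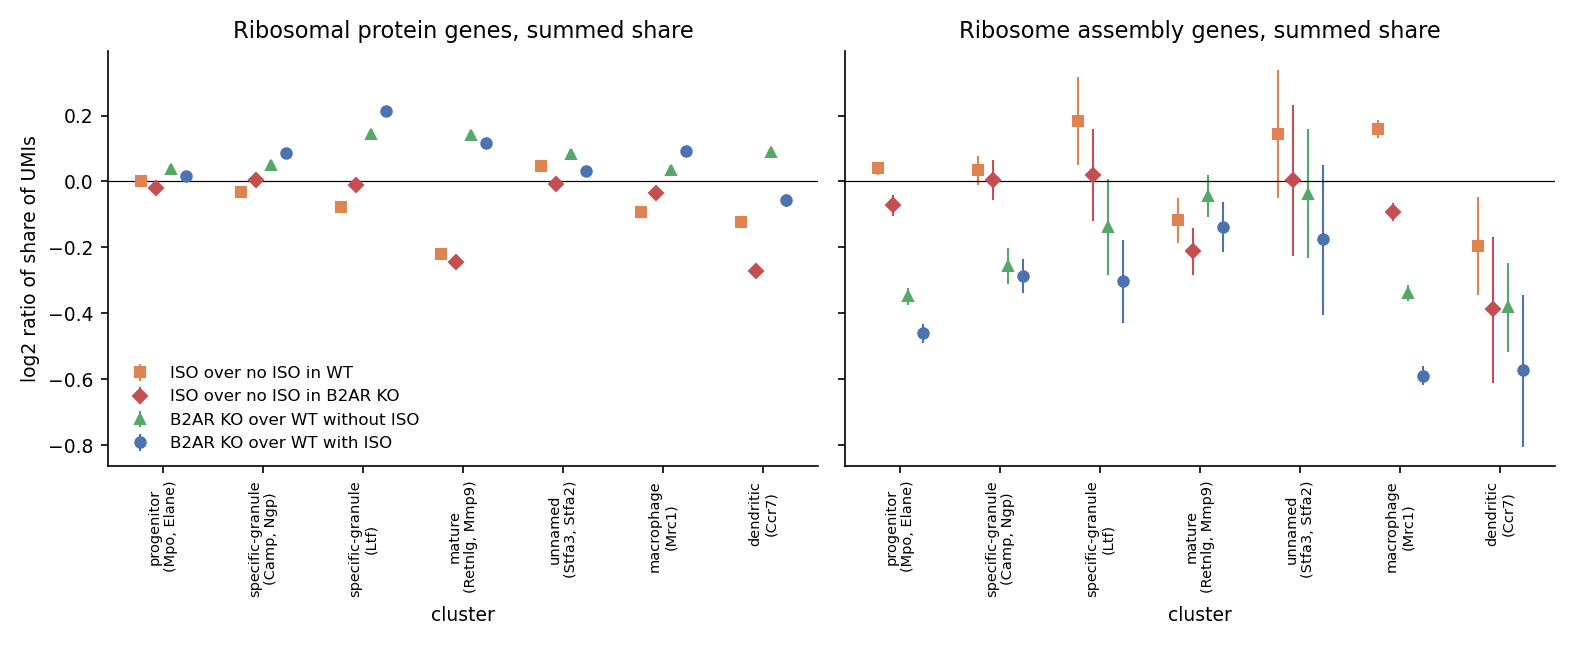
Log2 ratio of the summed ribosomal protein genes and of the summed ribosome assembly genes in each cluster for the 4 comparisons of libraries (B2AR KO stands for β2AR-/-), with 95% intervals that cover counting error only. The assembly genes lie below 0 in all 7 clusters in both genotype comparisons, while the ribosomal proteins lie above 0 in 7 and 6 of them.

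With ISO in WT the assembly genes went the other way from the median of the ribosomal proteins, with 5 of 37, or 13.5%, past the fold higher and 0 lower, beside 8.23% and 17.4% of all genes. Their median was 0.20 against -0.024 for all genes, and 33 were above 0, beside 5949 of 12988 genes. In β2AR-/- 0 were higher and 4, or 10.8%, lower, near the 8.84% of all genes, with a median of -0.15. In the progenitor-like cluster these ISO ratios of the summed genes were 0.040 (0.020 to 0.060) and -0.073 (-0.10 to -0.041), nearer to 0 than the genotype ratios there. Clusters differed in this. In WT the ratio was above 0 in 5 of 7 clusters and below 0 in 2, from -0.20 to 0.18. In β2AR-/- it was above 0 in 3 and below 0 in 4, from -0.39 to 0.019. The macrophage-like cluster had 0.16 (0.13 to 0.19) and -0.093 (-0.12 to -0.066), the mature one -0.12 (-0.19 to -0.051) and -0.21 (-0.28 to -0.14). Among regulators, Myc had 33.6, 38.7, 28.0 and 23.8 CPM and Eif4ebp1 205, 151, 279 and 274 CPM in WT, WT plus ISO, β2AR-/- and β2AR-/- plus ISO. Over all cells, Myc was thus lower and Eif4ebp1 higher in both β2AR-/- libraries than in both WT libraries. Progenitor-like cells, in which Myc was higher than in mature cells, made up 10.2%, 15.1%, 8.21% and 6.38% of cells in that order. Neither gene is given within clusters here. Of the 17 regulators, 2 were past the fold higher in β2AR-/- and 0 lower without ISO, beside 12.3% and 11.1% of all genes. With ISO 4 were higher and 4 lower, or 23.5% each, near the 24.7% and 20.4% of all genes. In the progenitor-like cluster the 17 summed regulators had β2AR-/- over WT log2 ratios of 0.025 (-0.026 to 0.076) without and -0.001 (-0.057 to 0.054) with ISO. Over all cells with ISO the single regulators ran from -0.70 for Myc to 1.10 for Ddit4. Opposite changes cancel in a sum, so it does not say whether single regulators differed in that cluster.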

How the data were processed

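Single-cell droplet libraries of sorted CD11b+ MDSCs were measured in 4 samples, 1 per group. The paper's methods describe pooling of tagged cell suspensions before loading. Whether the 4 samples shared a droplet capture was not established here. The counts deposited by the authors are UMI counts per gene and barcode, not normalised. The authors' file header names Cell Ranger 7.0.0 and the submitters' processing notes Cell Ranger 6.0.0, Seurat and mm10. The labels' treatment field gives isoproterenol for every sample, so groups were taken from the titles. The 12 multiplexing tags were left out. A check of the genotype labels and some genes that the rule would name are not reported here.

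The cell filter asked for 200 or more detected genes and no more than 10% of UMIs from mitochondrial genes. Clustering used scanpy 1.11.5 (2000 variable genes, 30 components, 15 neighbours, Leiden resolution 0.4, seed 0) without the members or the listed ribosome and translation genes. No doublet caller was run. A cluster was named from at least 3 markers detected in 10% of its cells, a mean log2 ratio of markers of at least 1, and its 10 leading genes. Shares were summed UMIs over all gene UMIs, and CPM is per 1e+06 UMIs. With 1 library per group no test was made. Cluster ratios are means ± SD over 4 libraries, and a pseudocount of 1 CPM was added for single genes. Past the fold means a log2 ratio beyond 0.32. The ratio step was checked on simulated data.

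Named genes were the 5 highest and 5 lowest members per comparison with at least 500 UMIs, all paralogues, and for other lists set genes and 2 from each end. The genes shown with sequences, the length relation, the start-site windows, and the assembly genes within clusters were chosen after values were seen. The members and lists were chosen with earlier results of these data known. Coding lengths came from the reference annotation, matched by Ensembl ID for 85 of 85 genes, and promoters from RefSeq. Alternatives changed cell filters, doublet handling, weights, totals, members, clustering, the fold and the libraries left out.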

Additional observations from a re-analysis of the deposited data

Results flagged for a closer look

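With ISO, 18 of the 77 core genes were above 0 in WT and 0 of 77 in β2AR-/-, beside 5949 and 5291 of all 12988 genes. Since all 77 were below 0 in β2AR-/-, any core gene above 0 in WT had to have the opposite sign there. The opposite signs are therefore not separate observations of single genes. Rpl31, Rpl4, Rps15 and Rps6 were the ones flagged. The log2 ratios were 0.063 and -0.099 for Rpl31, 0.045 and -0.090 for Rpl4, 0.071 and -0.13 for Rps15, and 0.042 and -0.12 for Rps6, in WT and β2AR-/- in turn. With 1 library per group the difference was not tested. With classes at fixed weights the WT values of these 4 genes were below 0, at -0.0064, -0.017, -0.043 and -0.049 in the same order, and progenitor-like cells made up 10.2% of WT and 15.1% of WT plus ISO cells.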

How the results depend on the processing

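The direction of the progenitor-like over mature ratio did not change under any alternative, but its size did. From 1.46 it went to 1.99 with no filter on cells, 1.85 with a stricter filter (1000 genes or more per cell, mitochondrial share up to 5%), 2.39 without cells above the 95th percentile of UMIs, 2.45 at resolution 1.0 and 1.21 without the 20 most abundant other genes in the total. The specific-granule over mature ratio of 0.52 went to 1.15, 1.17, 1.34, 1.43 and 0.68 in the same order, to 0.37 with 30 neighbours and to 0.27 with equal weight per cell. The progenitor-like over macrophage-like ratio of 0.40 went to 0.12 with no filter and 0.48 at resolution 1.0. Each alternative filter was clustered anew, so the mature cells differed between them. Leaving out each library in turn gave 1.40 to 1.51, 0.47 to 0.59 and 0.38 to 0.41, with 81 genes higher and 1 lower throughout, and the WT libraries alone, added after seeing the data, gave 1.51, 0.60 and 0.42.

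The ISO ratio of the share in WT was -0.040 with the stricter filter, -0.041 without the cells of highest UMIs, -0.036 without mitochondrial genes in the total, -0.086 with classes at fixed weights and 0.0090, of opposite sign, without the 20 most abundant other genes. In β2AR-/- it was -0.11 without the cells of highest UMIs, -0.13 with equal weight per cell, -0.049 without the 20 genes, -0.091 without the 10 most abundant members and -0.067 with classes at fixed weights. The genotype ratio without ISO was 0.022 with no filter, 0.028 with the stricter filter, 0.039 without the cells of highest UMIs, 0.096 with equal weight per cell, 0.031 without the 10 members and 0.072 with classes at fixed weights. With ISO it was -0.018 with the stricter filter, -0.0042 with equal weight per cell, -0.025 without mitochondrial genes, -0.033 without the 20 genes, -0.028 without the 10 members and 0.091, of opposite sign, with classes at fixed weights. The cause of these changes was not tested.

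At 1.5-fold, the counts of genes past the fold were 1 lower with ISO in WT, 0 lower for genotype without ISO, and 0 higher and 1 lower for genotype with ISO. With classes at fixed weights they were 1 lower with ISO in WT, 1 lower with ISO in β2AR-/-, 0 lower for genotype without ISO and 1 higher with ISO. Among members with at least 500 UMIs, 0 were lower for genotype without ISO. The shares of all genes at these settings are not given here, so these counts cannot be set against a background.

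Single genes changed sign as follows. With classes at fixed weights the ISO ratio in WT was -0.0064 for Rpl31, -0.033 for Rpl36al, -0.017 for Rpl4, -0.043 for Rps15 and -0.049 for Rps6. The genotype ratio without ISO was 0.012 for Rpl4, 0.020 for Rpl5 and 0.027 for Rps6. With ISO it was 0.046 for Rpl14, 0.076 for Rpl27, -0.020 for Rpl3l, 0.0080 for Rpl5 and 0.11 for Rpsa. Without the 20 most abundant other genes in the total, the ISO ratio in WT was 0.020 for Rpl13, 0.017 for Rps18 and 0.0059 for Rpsa, that in β2AR-/- was 0.0036 for Rps27, and the progenitor-like over mature ratio of Rps27 was -0.10. With the stricter filter the specific-granule over mature ratio was 0.62 for Rps19bp1, 0.30 for Rps27, 1.07 for Rps27l and 0.15 for Rps27rt, and the progenitor-like over macrophage-like ratio of Rps27l was -0.0013.

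No paired analysis was possible because a group is a single library here. Depth limits Rpl39l and Rpl3l, with 93 and 735 UMIs in all. The 1 library per group limits every comparison of ISO and genotype.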
